A study of Arabidopsis thaliana with 48 samples.

Results

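SWEET proteins are membrane transporters that let sugars move down their concentration gradient, out of or into a cell or across the membrane of the vacuole. The genes examined were SAG29, which is SWEET15, and every gene whose symbol is SWEET and a number, as far as a probe set of the array names that gene and no other. The rule found 15 genes on 15 probe sets, of 17 members known in Arabidopsis and of 13513 probe sets that name exactly 1 gene. SWEET12 was not analysed here, and SWEET5 is listed under its other name AtVEX1 and is described apart.

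Total RNA from roots of 6-day-old Arabidopsis thaliana seedlings was hybridised to 48 Affymetrix expression arrays with 3′ labelling. Seedlings had grown in continuous light on a nylon mesh over a mineral medium with sucrose, and the mesh was moved either to IAA medium or to control medium without it. IAA, indole-3-acetic acid, is the main natural auxin and was used at 1 µM. Roots on either medium were taken after 0 h (under 5 minutes), 0.5, 1, 2, 4, 8, 12 and 24 h, with 3 arrays in each of the 16 groups. The study followed the time course of auxin-responsive transcripts, so IAA is compared here with control medium of the same time.

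Plant sugar transport depends on where each SWEET acts. In Arabidopsis the family falls into 4 clades: members of clades I and II carry mainly hexoses such as glucose, members of clade III carry mainly sucrose across the plasma membrane, and the clade IV members SWEET16 and SWEET17 move fructose and other sugars across the vacuolar membrane. SWEET11 and SWEET12 release sucrose for phloem loading in leaves, SWEET9 serves nectar secretion in flowers, and SAG29 carries its name as a senescence-associated gene.

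The values are log2 intensities, so a difference of 1 is a doubling of the signal. The arrays had medians of 7.46 to 7.64 and lower quartiles of 6.11 to 6.29, and a probe set below its array's lower quartile is called dim here. The labels do not say that the arrays of a group came from separate cultures, so the tests measure the spread between these arrays, which may be technical. Roots are a mixture of cell types, and less RNA per cell cannot be told apart from fewer cells of a type. The root genes PYK10, EXPA7 and AT5G48940 stood above the lower quartile in 48 of 48 arrays, at means of 14.2, 9.16 and 8.40. GH3.3, an IAA-conjugating enzyme induced by auxin, averaged 13.0 on IAA and 8.06 on control medium at 0.5 h, and GH3.3, LBD29 and WES1 were higher on IAA at each time from 0.5 to 24 h. Across all probe sets 4 arrays stood farthest from the mean of their group, namely IAA 1 h replicate 3, control 0 h replicate 3, IAA 24 h replicate 2 and IAA 2 h replicate 3.

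On IAA, SAG29 rose late and SWEET14 and SWEET13 fell early, while SWEET9 was higher at 12 h. These 4 genes passed limma's moderated F test over the 7 comparisons of IAA with control from 0.5 to 24 h (adjusted p under 0.05 by Benjamini-Hochberg over all 22746 probe sets), and 11 did not. With replicate numbers not paired, the 4 of 15 make 26.7%, beside 28.3% of all probe sets, so the family's share is then near that of the whole array. All 4 belong to clade III, the sucrose transporters, of which 6 of 7 were measured. Both the share and the clade depended on the processing. With each array centred on its median, SWEET2 of clade I passed in place of SWEET9, and other members of clades I and II passed under some alternatives. With the replicate number treated as a pairing, 9 of the 15 genes (60%) passed, beside 36.4% of all probe sets. The genes added were SWEET1, SWEET2, SWEET3, SWEET4 and SWEET6 of clades I and II. At single times 8 of the 15 genes (53.3%) passed at 1 time or more, against 29.1% of all probe sets, and 2 of these 8, SWEET6 and SWEET7, were not clearly above background. SWEET2, SWEET3, SWEET6 and SWEET7 passed at 1 time without passing the F test. SWEET1, SWEET4, SWEET8, SWEET10, SWEET11, SWEET16 and SWEET17 passed neither.

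**Figure D1:**
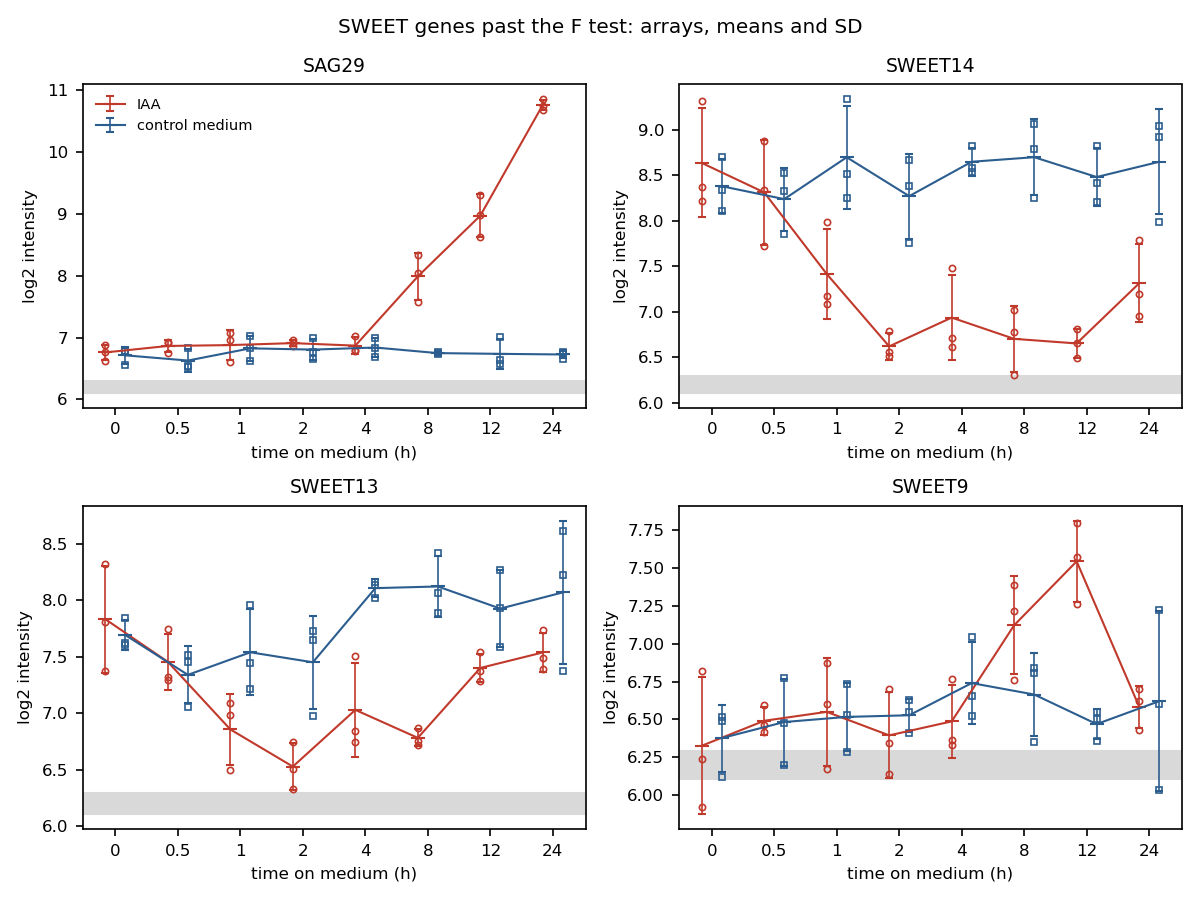
Log2 intensity (vertical axis) of SAG29, SWEET14, SWEET13 and SWEET9 against time on the medium in hours (horizontal axis, times evenly spaced and not to scale). Open symbols are arrays, IAA in red circles and control medium in blue squares, lines join the means of 3 arrays, bars are SD, and the grey band holds the lower quartiles of the 48 arrays. SAG29 on IAA reaches a mean of 10.77 at 24 h while control groups stay between 6.63 and 6.84, and SWEET14 on IAA lies below all control arrays of the same time from 1 to 24 h.

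SAG29, which exports sucrose in seeds and rises in senescing leaves, had the largest change of the family. Its 3 arrays read 10.75, 10.68 and 10.86 on IAA at 24 h, against 6.66, 6.77 and 6.75 on control medium. At 12 h they read 9.31, 8.99 and 8.62 on IAA, against 6.57, 6.63 and 7.01 on control medium. At 8 h they read 8.34, 8.05 and 7.58 on IAA, against 6.74, 6.75 and 6.76 on control medium. The groups did not overlap at these 3 times, and every IAA array lay more than the spread of the control arrays above them.

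The signal of SAG29 was 2.36-fold higher on IAA at 8 h (log2 1.24 ± 0.155 SE, n = 3 arrays per group, limma adjusted p = 1.57e-07). It was 4.71-fold higher at 12 h (2.24, limma adjusted p = 1.06e-13). At 24 h it was 16.4-fold higher (4.04, 95% interval of the fold 13.2 to 20.4, limma adjusted p = 5.03e-21), which placed SAG29 at rank 11 from the top among 22746 probe sets. From 0 to 4 h its differences were 0.03 to 0.24 and did not pass.

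In control roots SAG29 stayed flat. Its 24 control arrays had a lowest value of 6.52, a median of 6.76 and a highest value of 7.02. All 24 stood above their array's lower quartile, but these quartiles reached 6.29. The level on control medium was thus low, and the folds of SAG29 are relative to it. Ordered by level, IAA 24 h stood first, followed by IAA 12 h and IAA 8 h, each without overlap with the group below it. The other 13 groups, with means of 6.63 to 6.91, overlapped each neighbour in that order.

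The IAA effect on SAG29 differed between times (limma F test against the effect at 0.5 h, adjusted p = 4.64e-17), as did that on SWEET14 (0.0276) and SWEET9 (0.0460). These are 3 of 15 genes, beside 8.81% of all probe sets. Comparisons of each time with the one before were added after seeing the data. By these the SAG29 effect grew between 4 and 8 h (log2 1.21 ± 0.219, limma adjusted p = 0.00336, passed by 0.312% of all probe sets) and between 12 and 24 h (1.80, adjusted p = 1.92e-05, passed by 0.492%). Between 8 and 12 h the difference of 1.00 did not pass (adjusted p = 0.0803, passed by 0.0659%).

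SWEET14, a clade III sucrose transporter that also carries gibberellin in Arabidopsis, was lower on IAA from 1 h onward. At 1 h its arrays read 7.09, 7.99 and 7.17 on IAA, against 9.33, 8.51 and 8.24 on control medium. At 2 h they read 6.51, 6.56 and 6.79 on IAA, against 8.38, 7.76 and 8.67 on control medium. At 8 h they read 6.78, 7.02 and 6.30 on IAA, against 8.24, 9.06 and 8.78 on control medium. The groups did not overlap at any of the 6 times from 1 to 24 h.

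SWEET14 signal was 2.43-fold lower at 1 h (-1.28 ± 0.331 on the log2 scale, with 3 arrays per group, limma adjusted p = 0.0275) and 3.14-fold lower at 2 h (-1.65, 7.66e-04). It was 3.28-fold lower at 4 h (-1.71, limma adjusted p = 2.45e-04). The widest difference came at 8 h, 3.99-fold lower (log2 -2.00, 95% interval of the fold 2.50 to 6.36, limma adjusted p = 2.67e-05). It was 3.55-fold lower at 12 h (-1.83, 1.21e-04) and 2.52-fold lower at 24 h (-1.34, limma adjusted p = 0.00788). At 0 and 0.5 h the differences were 0.26 and 0.07 and did not pass.

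At 24 h the IAA arrays of SWEET14 read 7.78, 6.95 and 7.19, against 8.91, 7.98 and 9.04 on control medium. The call at 24 h ended without IAA replicate 2 (limma adjusted p = 0.0612), control replicate 1 (0.0515) or control replicate 3 (0.0684). The call at 1 h ended without control replicate 1 (0.322), IAA replicate 1 (0.180) or IAA replicate 3 (0.124). The calls at 2, 4, 8 and 12 h held under every alternative tried.

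SWEET14 ordered its groups by medium. The 8 control groups and the IAA groups of 0 and 0.5 h had means of 8.24 to 8.70, and the 6 later IAA groups had means of 6.62 to 7.41. Each group overlapped its neighbour in this order, also the highest of the later IAA groups, that of 1 h, with the lowest control group, that of 0.5 h. The difference in its IAA effect between times lost its call without control 0.5 h replicate 1 or 2 or IAA 0.5 h replicate 2 or 3.

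SWEET13, closely related to SWEET14 and also able to carry gibberellin, was lower on IAA from 2 to 8 h. At 2 h its arrays read 6.51, 6.75 and 6.33 on IAA, against 7.65, 6.98 and 7.73 on control medium. At 4 h they read 7.50, 6.74 and 6.84 on IAA, against 8.16, 8.14 and 8.02 on control medium. At 8 h they read 6.76, 6.87 and 6.72 on IAA, against 7.89, 8.42 and 8.06 on control medium. Every IAA array lay below every control array at these 3 times, and also at 1 and 12 h, where the differences did not pass.

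The signal of SWEET13 was 1.89-fold lower at 2 h (log2 -0.92 ± 0.251, n = 3 per group, limma adjusted p = 0.0141). It was 2.11-fold lower at 4 h (-1.08, 0.00208) and 2.53-fold lower at 8 h (-1.34, limma adjusted p = 1.72e-04). At 1 h the difference was -0.68 (limma adjusted p = 0.213), at 12 h -0.52 (0.199) and at 24 h -0.53 (0.246). The call at 2 h ended without control replicate 1 (0.0732), control replicate 3 (0.0801) or IAA replicate 1 (0.0600). The effect of IAA on SWEET13 was not shown to differ between times (limma F test, adjusted p = 0.0764).

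SWEET9, known for sucrose export in nectaries, was low in these roots and stood above its array's lower quartile in 44 of 48 arrays. At 12 h its arrays read 7.57, 7.80 and 7.26 on IAA, against 6.50, 6.36 and 6.55 on control medium. At 8 h they read 7.22, 7.39 and 6.76 on IAA, against 6.80, 6.84 and 6.35 on control medium. At 24 h they read 6.62, 6.70 and 6.43 on IAA, against 6.60, 7.22 and 6.04 on control medium. The groups separated at 12 h and overlapped at 8 and 24 h.

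The signal of SWEET9 was 2.11-fold higher at 12 h (log2 1.07 ± 0.231, n = 3 per group, limma adjusted p = 0.00113). The differences were 0.46 at 8 h (adjusted p = 0.196) and -0.04 at 24 h (0.964). Replicate 2 was the highest array in 13 of the 16 groups of SWEET9. Its F test over all times lost the call without IAA 12 h replicate 2 or control 12 h replicate 2, without all arrays of replicate 1 or of replicate 2, and with each array centred on its median. Its difference between times lost the call in 31 of 51 alternatives, most of them with 1 array left out.

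**Figure D2:**
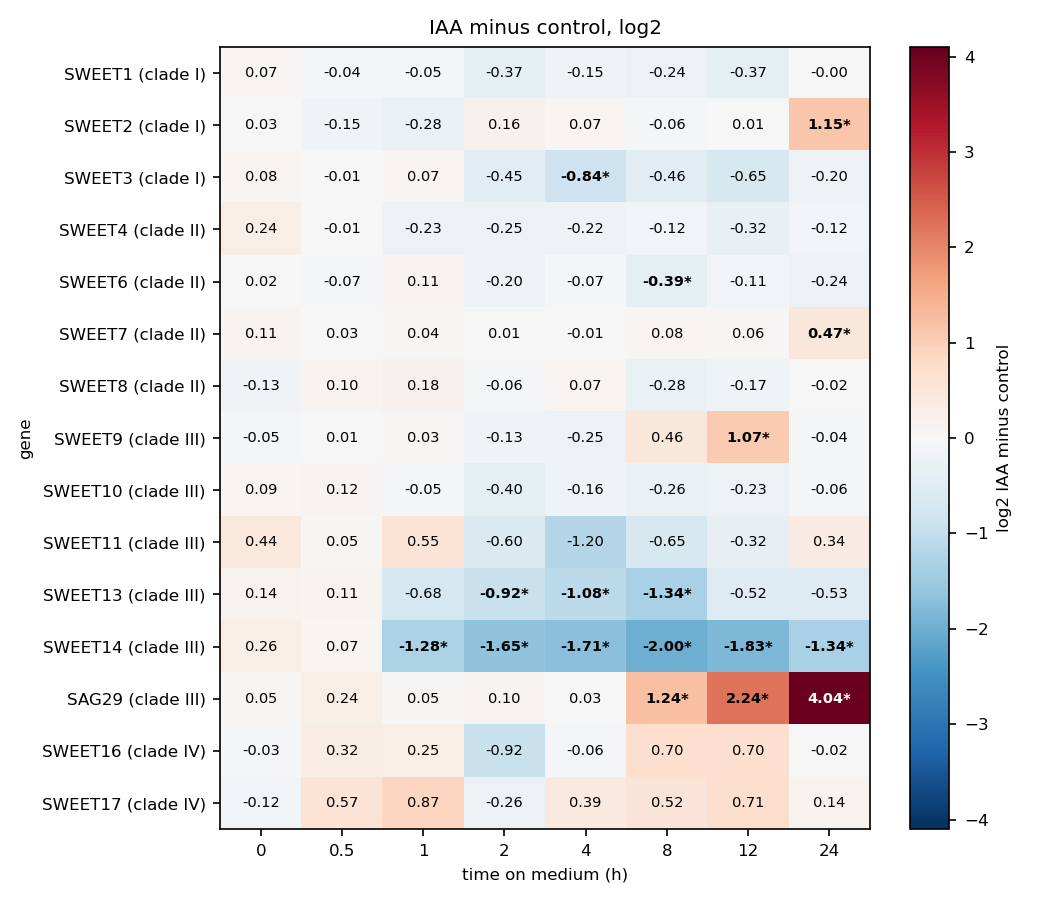
Log2 difference of IAA minus control medium (colour and printed value) for the 15 SWEET genes, in rows with their clade, at each time in hours, in columns. Bold values with an asterisk passed limma at an adjusted p under 0.05, and the values run from -2.00 for SWEET14 at 8 h to 4.04 for SAG29 at 24 h.

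The calls at a single time ran from 0 to 4 of the 15 genes. Up to 4 h they were falls of SWEET14, SWEET13 and SWEET3. At 12 and 24 h SWEET14 was lower and SAG29 higher, with SWEET9 higher at 12 h and SWEET2 and SWEET7 at 24 h. At 0 h 0 of 15 genes passed limma, and 0 had an unadjusted p under 0.05, beside 0 and 0.796% of all probe sets. At 0.5 h 0 passed and 0 had an unadjusted p under 0.05, beside 1.18% and 8.73%. At 1 h 1 gene fell (0.607% of all probe sets) and 0 rose (1.34%).

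At 2 h 2 genes fell (3.76%) and at 4 h 3 fell (7.1%), and at neither time did a gene of the family rise (5.44% and 9.73%). At 8 h 3 fell (6.43%), the dim SWEET6 among them, and 1 rose (8.45%). At 12 h 1 fell (4.93%) and 2 rose (5.99%), and at 24 h 1 fell (3.21%) and 3 rose (3.79%), the dim SWEET7 among them. The IAA and control arrays were fully apart in 0 of the 15 genes at 0.5 h (13.5% of all probe sets), 2 at 1 h (11.9%), 6 at 2 h (20.1%), 6 at 4 h (34.3%), 7 at 8 h (35.3%), 9 at 12 h (32.6%) and 5 at 24 h (20.2%). The median difference of the 15 genes was 0.07, 0.05, 0.04, -0.26, -0.15, -0.24, -0.17 and -0.02 from 0 to 24 h in order of time, where the median of all probe sets lay between -0.02 and 0.01.

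The hexose transporters of clades I and II gave 4 calls, each at 1 time. SWEET2, a clade I member of the vacuolar membrane that limits the loss of sugar from roots, read 8.31, 9.21 and 8.61 on IAA at 24 h, against 7.33, 7.67 and 7.69 on control medium. Its groups did not overlap there, and the signal was 2.22-fold higher on IAA (log2 1.15 ± 0.266, n = 3 per group, limma adjusted p = 0.00428). Without IAA 24 h replicate 2, which is among the arrays far from their group, the difference was 0.90 and the call ended (adjusted p = 0.0605). From 0 to 12 h its differences ran from -0.28 to 0.16, and none passed.

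SWEET3 of clade I read 6.51, 6.38 and 6.61 on IAA at 4 h, against 6.83, 6.84 and 8.36 on control medium. The difference was log2 -0.84 ± 0.292 (1.79-fold lower, limma adjusted p = 0.0416), and it was -0.34 without control replicate 3 (0.520). The call also ended without any 1 of the 3 IAA arrays of 4 h (limma adjusted p = 0.0712 to 0.124). At 8 and 12 h the groups did not overlap either, with differences of -0.46 and -0.65 that did not pass (0.326 and 0.168).

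SWEET6 and SWEET7 of clade II were dim in 48 of 48 arrays, so their levels were not clearly above background. SWEET6 read 5.77, 5.66 and 5.63 on IAA at 8 h, against 6.14, 6.04 and 6.06 on control medium. Its difference was log2 -0.39 ± 0.121 (limma adjusted p = 0.0224), and no fold is given at this level. SWEET7 read 5.67, 5.75 and 5.90 on IAA at 24 h, against 5.19, 5.33 and 5.39 on control medium.

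The SWEET7 groups did not overlap at 24 h, and its difference was log2 0.47 ± 0.136 (limma adjusted p = 0.0269), again without a fold. All 48 arrays of SWEET7 stayed at or below 5.90. The SWEET6 call ended without control 8 h replicate 1 or 3 or IAA 8 h replicate 2 or 3 (limma adjusted p = 0.0505 to 0.0821). The SWEET7 call ended without control 24 h replicate 1 or 2 or IAA 24 h replicate 2 or 3 (0.0592 to 0.121). Both differences lie under a fold of 1.5, so neither call could pass where that fold was required in addition.

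**Figure D3:**
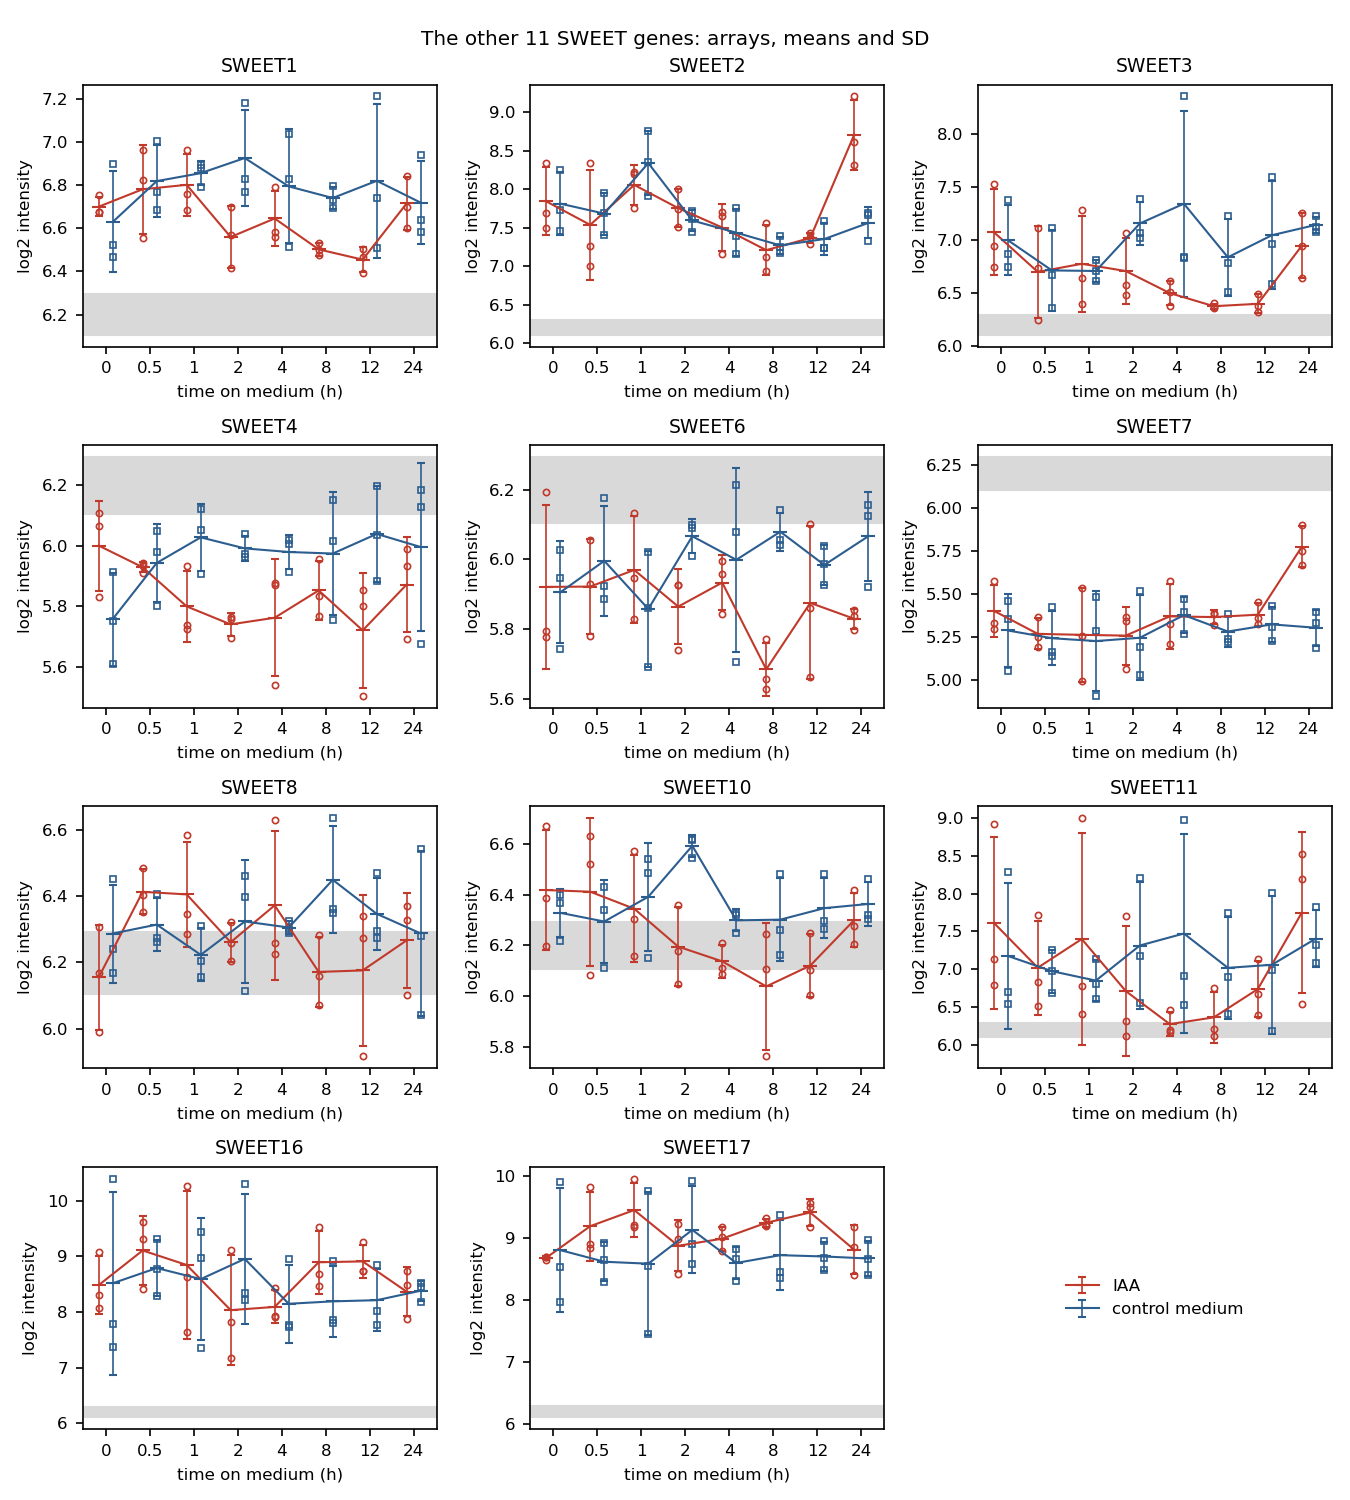
Log2 intensity (vertical axis, a scale of its own for each gene) of the 11 SWEET genes that did not pass the F test, against time on the medium in hours (horizontal axis, times evenly spaced and not to scale). Open symbols are arrays, IAA in red circles and control medium in blue squares, with means of 3 arrays joined by lines, SD bars and the lower quartiles of the arrays as a grey band. SWEET4, SWEET6 and SWEET7 lie within or below the band, SWEET2 is higher on IAA at 24 h, and the arrays of SWEET11 and SWEET16 scatter widely within groups.

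SWEET1, a glucose transporter of the plasma membrane in clade I, ran from 6.39 to 7.21 over all arrays and passed at no time. Its lowest difference was -0.37 at 2 h (limma adjusted p = 0.112) and again at 12 h (0.0998), where the groups did not overlap. SWEET4 of clade II was dim in 48 of 48 arrays, with a largest difference of -0.32 at 12 h (limma adjusted p = 0.0915). SWEET8, needed for pollen wall formation, stood above its array's lower quartile in 39 of 48 arrays, with a largest difference of -0.28 at 8 h (0.137).

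SWEET10 of clade III lies next to SWEET13 in the RefSeq gene table, with 0 genes between them. It read 6.05, 6.18 and 6.36 on IAA at 2 h, against 6.54, 6.62 and 6.61 on control medium. These groups did not overlap, but the difference of log2 -0.40 ± 0.135 missed the threshold (limma adjusted p = 0.0581). At 8 h, where SWEET13 differed most, SWEET10 differed by -0.26 (0.206). SWEET10 stood above its array's lower quartile in 34 of 48 arrays.

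SWEET11, the phloem-loading sucrose exporter of leaves, varied more between replicates than almost any other probe set. Its residual SD was 0.819, at percentile 99.4 of all probe sets, whose median was 0.179. At 4 h its arrays read 6.19, 6.17 and 6.46 on IAA, against 6.91, 6.52 and 8.98 on control medium. The difference of log2 -1.20 had a 95% interval from -2.48 to 0.08 (limma adjusted p = 0.219), and it was -0.45 without control 4 h replicate 3 (0.774). SWEET11 was highest in replicate 3 in 13 of 16 groups, and it lay 0.99 to 1.60 above its group mean on 3 of the 4 arrays that stand apart and 1.21 below it on IAA 24 h replicate 2.

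The vacuolar transporters of clade IV also varied widely between replicates. SWEET16 had a residual SD of 0.825 (percentile 99.5) and was highest in replicate 3 in 12 of 16 groups. At 0 h its control arrays alone ran from 7.37 to 10.40. Its largest difference was -0.92 at 2 h, with a 95% interval from -2.21 to 0.37 (limma adjusted p = 0.459). It was -0.25 without control 2 h replicate 3 (limma adjusted p = 0.900), -0.49 without IAA 2 h replicate 2 (0.787) and -1.47 without IAA 2 h replicate 3 (0.181).

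SWEET17 had a residual SD of 0.522 (percentile 97) and was highest in replicate 3 in 8 of 16 groups. At 12 h its arrays read 9.56, 9.17 and 9.50 on IAA, against 8.67, 8.48 and 8.95 on control medium. The groups did not overlap, and the difference of log2 0.71 had a 95% interval from -0.11 to 1.53 (limma adjusted p = 0.298). At 1 h the difference was 0.87 (0.437). It was 0.30 without control 1 h replicate 1 (limma adjusted p = 0.997) and passed without control 1 h replicate 2 (1.45, 0.0444). The intervals of SWEET11 at 4 h, SWEET16 at 2 h and SWEET17 at 1 and 12 h each include a 2-fold change, so these data do not exclude one.

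SWEET5, listed as AtVEX1 and therefore outside the rule, had a mean of 6.36 and did not pass the F test (limma adjusted p = 0.426). At 12 h it averaged 6.13 on IAA and 6.60 on control medium, a difference of -0.47 that missed the threshold (0.0522).

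On control medium alone, 0 of the 15 genes passed the F test of the later times against 0 h by limma, and 2 had an unadjusted p under 0.05, SWEET2 and SWEET13. Of all probe sets 0 passed it and 2.11% had an unadjusted p under 0.05. The group means of SWEET13 ran from 7.34 at 0.5 h to 8.12 at 8 h on control medium, and those of SWEET2 from 7.27 at 8 h to 8.34 at 1 h.

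The genes whose 16 group means were most like those of SAG29, among 13349 genes, were AT1G23200 (Pearson r = 0.987), AT1G62760 (0.984) and AT4G18450 (0.968). At 24 h AT1G62760 averaged 8.57 on IAA and 6.30 on control medium. AT4G18450 averaged 7.76 on IAA and 5.98 on control medium there, and AT1G23200 averaged 7.61 on IAA and 6.35 on control medium. Nearest to SWEET14 were AT5G66815 (0.978), AT2G41730 (0.965) and AT2G38610 (0.964). AT2G41730 averaged 7.76 on IAA at 8 h and 11.42 on control medium, and AT5G66815 averaged 5.56 on IAA and 8.57 on control medium.

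Nearest to SWEET13 were AT1G61170 (0.920), the expansin EXPA8 (0.916), a cell wall protein, and AT1G22160 (0.907). Within the family the member most like SWEET13 was SWEET14, and the reverse (0.817), and the member most like SAG29 was SWEET7 (0.863), which was dim in every array. Nearest to SWEET9 were AT4G12360 (0.951), the serine carboxypeptidase-like gene scpl35 (0.913) and AT2G07360 (0.911). These correlations are over 16 group means of the same arrays and are given as a description.

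Of 37 other sugar transporter genes listed for comparison, 10 were measured, and 4 of these passed the F test, beside 28.3% of all probe sets. In this and the later lists, measured means found on a probe set naming exactly 1 gene, and other listed genes were left out. SFP1, a sugar transporter of the ERD6-like family, averaged 9.34 on IAA and 9.94 on control medium at 2 h, a fall of log2 -0.60 ± 0.148 (limma adjusted p = 0.00652). It rose at 8 h (0.59), 12 h (0.77) and 24 h, when it averaged 10.99 on IAA and 10.16 on control medium (0.82, limma adjusted p = 1.81e-04). TMT2, a sugar carrier of the vacuolar membrane, rose at 12 h (0.37, 0.0372), and AT5G17010 fell at 8 h (-0.47, 0.00909) and 24 h (-0.43, 0.0294).

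TMT1, of the same family as TMT2, passed the F test but no single time, and its difference was 0.45 at 1 h (limma adjusted p = 0.202). From 2 to 24 h TMT1 was lower on IAA at each time, with differences of -0.37 to -0.20. The other 6 did not pass the F test, and of these TMT3 was lower at 8 h (-0.42, 0.0224). The median difference of the 10 genes ran from -0.20 to 0.07 over the 8 times. The sucrose carriers of the SUC family, which load sucrose with protons, had no probe set naming 1 gene in this list and were not analysed here.

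Of 16 genes listed under sucrose cleavage 2 were measured, and both passed the F test, beside 28.3% of all probe sets. With 2 genes this says little about the group, and whether each of the 2 enzymes cleaves sucrose was not tested here. cwINV6, a cell wall invertase by its name alone, averaged 7.54 on IAA and 6.74 on control medium at 4 h (log2 0.80 ± 0.261, limma adjusted p = 0.0285). AT1G62660 averaged 10.98 on IAA and 11.93 on control medium at 4 h (-0.95 ± 0.270, 0.0113), and was also lower at 12 h (-0.88, 0.0276).

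**Figure D4:**
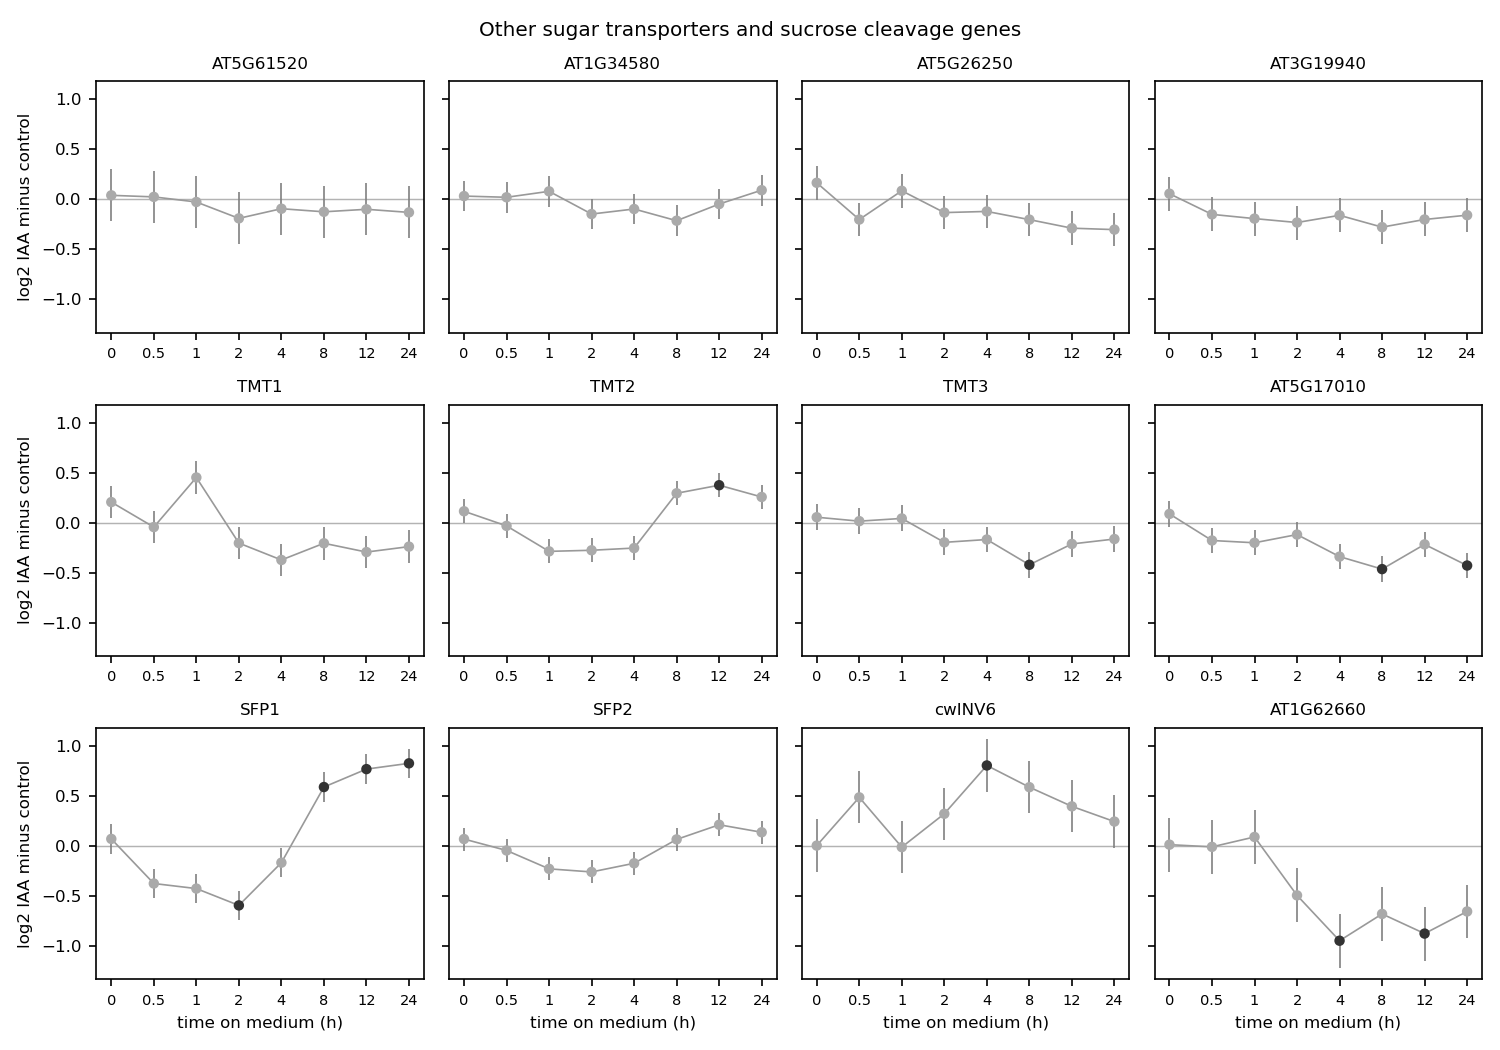
Log2 difference of IAA minus control medium (vertical axis) against time on the medium in hours (horizontal axis, times evenly spaced and not to scale). Shown are the 10 measured other sugar transporters and the 2 measured genes listed under sucrose cleavage. Bars are SE with 3 arrays per group, dark points passed limma at an adjusted p under 0.05 and grey points did not. SFP1 lies at -0.60 at 2 h and at 0.82 at 24 h, and AT1G62660 at -0.95 at 4 h.

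SAG29 is known from senescence and water stress, and few listed genes of these responses had a probe set naming exactly 1 gene. Of 13 senescence genes 2 were measured: SAG101, a lipase-like protein, was higher at 4 h (log2 0.59 ± 0.178, limma adjusted p = 0.0171), and WRKY53, a transcription factor of leaf senescence, did not pass the F test (0.428). At 24 h, when SAG29 stood highest, SAG101 averaged 7.09 on IAA and 6.77 on control medium and WRKY53 averaged 7.29 on IAA and 7.04 on control medium. Of 15 genes of abscisic acid and water stress 2 were measured, COR15A and COR47. Of these 0 passed the F test, beside 28.3% of all probe sets. COR15A stood above its array's lower quartile in 0 of 48 arrays, so a response of it could hardly be seen. COR47 missed the threshold of the F test (limma adjusted p = 0.0612). Its IAA arrays lay below the control arrays at 4, 8, 12 and 24 h (log2 -0.70, -0.50, -0.35 and -0.66), and no single time passed. Of 15 sugar starvation genes 1 was measured, AKINBETA1, a subunit of the SnRK1 kinase, which did not pass (0.847).

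Markers of other cells were few. Of 19 vascular markers 1 was measured, OPS, a regulator of phloem differentiation, which ran from 7.61 to 7.80 on IAA at 24 h and from 7.52 to 7.83 on control medium. Of 10 shoot markers 2 were measured, RCA and LHCB4.1, which stood above the lower quartile in 48 of 48 arrays. LHCB4.1, a light-harvesting protein, was lower on IAA at 4 h (log2 -0.67, limma adjusted p = 0.0178), beside the falls of SWEET14, SWEET13 and SWEET3 at that time.

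At 24 h the mean level of both shoot markers ran from 7.80 to 8.36 on IAA and from 7.58 to 8.01 on control medium, beside the rises of SAG29, SWEET2 and SWEET7. RCA alone differed by 0.67 at 24 h and missed the threshold (limma adjusted p = 0.0515). Of 15 root markers 3 were measured, and EXPA7, an expansin of root hairs, was higher on IAA at 4 h (0.89, 0.0472), and AT5G48940 was higher at 24 h (0.45, 0.0221). The part of these markers in the SWEET results was not tested.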

How the data were processed

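Per the submitters' labels, total RNA from roots was labelled by the Affymetrix 3′ protocol. The authors deposited 1 log2 intensity for each probe set on each array. This scale was read from the values, and how they were summarised and normalized is not given in the sources. Of 22810 probe sets, 64 array controls were left out and 22746 were tested without a filter. Probe sets were named by the platform's gene table and the RefSeq gene table of TAIR10.1, which was used for names and neighbours alone.

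With 1 mean per group, 16 groups were fitted to all 48 arrays in limma 3.58.1 (lmFit and eBayes, R 4.3.3, 32 residual degrees of freedom). Tests were two-sided, adjusted over all probe sets by the Benjamini-Hochberg method, with a threshold of 0.05, and errors of differences are standard errors. The script was tested on simulated data. The family members and the gene lists were chosen with earlier results of these data known. Every family member is named, up to 4 genes of each list past the F test are named by largest change, others as checks, and the 3 genes most like each member past the F test. TMT3, WRKY53, COR15A, COR47, AKINBETA1, OPS and RCA were named after their values were seen.

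Replicate numbers were not used as pairs. The IAA and control arrays of 1 number and time deviated together (correlation over 0.1) in 20 of 24 cases. Alternatives were quantile normalization, median centring, a filter on low values, the replicate block, an intensity trend, a fold of at least 1.5, the difference at 0 h subtracted, a fit of 6 arrays, and arrays or replicate numbers left out. Precision is limited by the 3 arrays of a group.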

Additional observations from a re-analysis of the deposited data

Results flagged for a closer look

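For 3 SWEET genes the effect of IAA differed between times by limma's F test of the difference itself. SAG29 had an adjusted p of 4.64e-17, with differences of 1.24 at 8 h, 2.24 at 12 h and 4.04 at 24 h and of 0.24 at 0.5 h (log2, n = 3 arrays per group). SWEET14 had an adjusted p of 0.0276, with differences of 0.07 at 0.5 h, -2.00 at 8 h and -1.34 at 24 h. SWEET9 had an adjusted p of 0.0460, with differences of 0.01 at 0.5 h, 1.07 at 12 h and -0.04 at 24 h. The call of SAG29 held under all 51 alternatives, that of SWEET14 under 45 and that of SWEET9 under 20.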

How the results depend on the processing

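The 17 calls of a SWEET gene at a single time kept their direction under every alternative, and 8 of them passed under every one: SWEET14 at 2, 4, 8 and 12 h, SWEET13 at 8 h and SAG29 at 8, 12 and 24 h. The F test called SAG29, SWEET14 and SWEET13 under all 51 alternatives. With the replicate number as a block, that is, treated as a pairing, 9 genes passed it in place of 4, beside 36.4% of all probe sets. The genes added were SWEET1, SWEET2 and SWEET3 of clade I and SWEET4 and SWEET6 of clade II. The deviations of each of the 48 arrays from its group means were correlated with those of the 3 arrays of the other medium at that time. For 39 arrays the highest correlation was with the array of their own number, a hint from the data and not from the design. The count at 1 h became 0 with the 0 h difference subtracted, without the 4 far arrays, or with 6 arrays fitted. The count at 2 h became 1 with the 0 h difference subtracted or with 6 arrays fitted. The count at 24 h became 1 with the 0 h difference subtracted and 2 without the 4 far arrays. With arrays or replicate numbers left out, the counts ran from 3 to 6 for the F test, 1 to 4 for the difference between times, 0 to 2 at 1 h, 1 to 3 at 2 and 4 h, 3 to 4 at 8 h, 2 to 4 at 12 h and 1 to 4 at 24 h, and were 0 at 0 and 0.5 h and for control times. Without replicate 1 the SWEET9 call at 12 h ended (limma adjusted p = 0.124), and without replicate 2 that of SWEET13 at 4 h (0.0512). The cause of these changes was not tested. The filter on low values kept 17059 probe sets and 12 SWEET genes, without SWEET4, SWEET6 and SWEET7. Dim probe sets limit what can be said of SWEET4, SWEET6, SWEET7, SWEET8 and SWEET10.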
